A study of Mus musculus with 3 samples.

Results

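The 10 genes described here, Dlx1, Dlx2, Dlx5, Dlx6, Sp8, Sp9, Etv1, Tshz1, Pax6 and Meis2, encode transcription factors known from interneurons of the olfactory bulb (OB). They were chosen by name, and all 10 were found among the 31055 genes of the count tables. Their RNA was followed across the 22 clusters into which the retained nuclei had been divided.

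Most interneurons of the OB use GABA, and many are added throughout life by neuroblasts that migrate into the bulb from the walls of the lateral ventricles. The Dlx genes encode homeodomain proteins that act early in this lineage and lie as pairs facing each other on the chromosome. Sp8 and Sp9 encode related zinc finger factors, Etv1 an ETS factor, Tshz1 a zinc finger homeodomain factor, Pax6 a paired-box factor and Meis2 a TALE homeodomain factor that can pair with other homeodomain proteins. Pax6, Etv1 and Meis2 are known from dopaminergic periglomerular cells, Sp8 from periglomerular cells that contain calretinin, and Tshz1 from granule cells.

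The nuclei came from the OB of 3 adult male C57Bl/6 mice, which form 1 group without an untreated control. Each mouse had received rAAVretro-CAG-H2B-GFP, a virus taken up by axon endings that drives a nuclear green fluorescent protein from a general promoter, in the anterior olfactory nucleus and the piriform cortex. Nuclei were sorted for the fluorescence and for a DNA dye, and 1 droplet-based library of single nuclei was made for each mouse. The inhibitory neurons among the sorted nuclei need not represent all interneurons of the bulb. With no second condition, the comparisons below are between clusters, with the mice as replicates.

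The 3 libraries gave 5845, 21105 and 4753 retained nuclei, with a median of 7940, 8420 and 10568 molecule barcodes (UMIs), which count the RNA molecules caught in a nucleus. Between 8 and 39 retained barcodes were shared by a pair of mice. From lists of marker genes, 10 clusters were inhibitory-neuron-like (21236 nuclei, 64.1% ± 5.90 of a mouse's nuclei, SD, n = 3), and 5 were projection-neuron-like (7504 nuclei, 26.9% ± 6.36). The others were like astrocytes, olfactory ensheathing glia, oligodendrocytes, their precursors, microglia, and endothelial and mural cells. Cluster 21, of 103 nuclei with a median of 2240 UMIs, carried 4 inhibitory markers but stayed unnamed, since its median was 0.258 of that of its own mice, under the limit set for shallow clusters. The name of clusters 10 and 12 rests in part on Dlx6os1, a noncoding gene at the Dlx5 and Dlx6 locus. Without it they carry 2 inhibitory markers rather than the 3 needed. Genes of inhibitory neurons were also counted in other clusters, and where these UMIs came from was not tested. Gad1, which encodes a GABA-synthesising enzyme, stood at 60.2, 136.7 and 39.3 UMIs per 1000000 (CPM) in the projection neurons of mice 1, 2 and 3, against 913, 786 and 674 in their inhibitory neurons. Of the Gad1 UMIs in projection neurons 54.6% came from 1032 of the 7504 nuclei, in subclusters 2 and 9, which carry 4 inhibitory markers each, and the study assigned part of the nuclei it subclustered to periglomerular cells. Without these subclusters Gad1 stood at 33.0, 78.6 and 25.1 CPM.

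The genes lie at 8 places of the GRCm38 genome (GENCODE M21). Dlx1 (chr2:71528113-71533981, plus strand) and Dlx2 (chr2:71543408-71546754, minus strand) are 9.43 kb apart, and Dlx6 (chr6:6863334-6868568, plus) and Dlx5 (chr6:6877805-6882085, minus) are 9.24 kb apart. Sp9 is at chr2:73271925-73284706 (plus), Pax6 at chr2:105668900-105697364 (plus), Meis2 at chr2:115863064-116065839 (minus), Etv1 at chr12:38779380-38870484 (plus) and Sp8 at chr12:118846329-118852576 (plus), with Tshz1 given further on. All 10 are protein coding. Dlx1 lies whole inside the antisense gene Dlx1as and Dlx6 inside Dlx6os1, while Pax6 overlaps the antisense gene Pax6os1 by 1431 bases. Since the sources do not say whether strand was used in counting, the counts of Dlx1, Dlx6 and Pax6 may hold reads of these partners. Levels are not compared between genes, because the genes span from 3.35 kb (Dlx2) to 202.8 kb (Meis2) and the treatment of intronic reads is not given in the sources used here.

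RefSeq promoters (GRCm38.p6, from 250 bases before to 50 bases after a start) were matched for 7 of the 10 genes. Those of Dlx1 and Dlx2, neighbours with the most similar levels over the clusters, and of the paralogs Sp8 and Sp9, which were less alike, are printed 5′ to 3′ on the strand of the gene. Capitals mark the letters GGGCGG, a GC box of the kind that Sp proteins bind, and CCAAT, each searched on both strands.
Dlx1, chr2:71529195-71529494, plus: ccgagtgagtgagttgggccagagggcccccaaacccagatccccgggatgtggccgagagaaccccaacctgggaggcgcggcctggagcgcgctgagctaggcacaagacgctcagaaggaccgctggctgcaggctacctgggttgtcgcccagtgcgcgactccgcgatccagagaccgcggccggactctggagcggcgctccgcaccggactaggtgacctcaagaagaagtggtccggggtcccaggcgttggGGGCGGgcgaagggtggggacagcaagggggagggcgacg
Dlx2, chr2:71546705-71547004, minus: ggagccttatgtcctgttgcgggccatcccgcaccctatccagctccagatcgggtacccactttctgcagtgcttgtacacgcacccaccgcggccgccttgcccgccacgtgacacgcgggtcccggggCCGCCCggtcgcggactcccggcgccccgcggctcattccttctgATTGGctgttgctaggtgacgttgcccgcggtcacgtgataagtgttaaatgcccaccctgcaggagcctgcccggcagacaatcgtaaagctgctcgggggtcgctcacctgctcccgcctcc
Sp8, chr12:118846079-118846378, plus: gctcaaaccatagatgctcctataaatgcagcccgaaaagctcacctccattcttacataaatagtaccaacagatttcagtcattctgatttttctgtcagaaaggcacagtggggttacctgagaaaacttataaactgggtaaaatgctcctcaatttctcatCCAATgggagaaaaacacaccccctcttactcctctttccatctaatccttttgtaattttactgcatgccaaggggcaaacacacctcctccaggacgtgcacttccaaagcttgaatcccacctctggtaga
Sp9, chr2:73271676-73271975, plus: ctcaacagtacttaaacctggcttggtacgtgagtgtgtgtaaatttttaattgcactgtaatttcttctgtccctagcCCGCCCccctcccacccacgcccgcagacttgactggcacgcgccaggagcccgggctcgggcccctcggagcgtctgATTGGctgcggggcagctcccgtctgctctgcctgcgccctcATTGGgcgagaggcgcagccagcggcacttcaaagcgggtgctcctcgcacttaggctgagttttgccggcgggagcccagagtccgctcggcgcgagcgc
The Dlx1 window holds 1 GGGCGG and no CCAAT, that of Dlx2 holds 1 of each, that of Sp9 1 GGGCGG and 2 CCAAT, and that of Sp8 1 CCAAT and no GGGCGG. Over all 32851 promoters of this length, 35.7% hold GGGCGG and 37.4% hold CCAAT. The Sp8 window has 43.0% G and C with 2 CpG steps, against 63.7% with 25 for Sp9, 69.3% with 27 for Dlx1 and 66.3% with 29 for Dlx2. Sp8 has 2 further starts in the table, of which the next, at chr12:118846983-118847282, has 61.0% G and C and does hold GGGCGG. A match of letters is a description of the window and not a binding site.

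**Figure D1:**
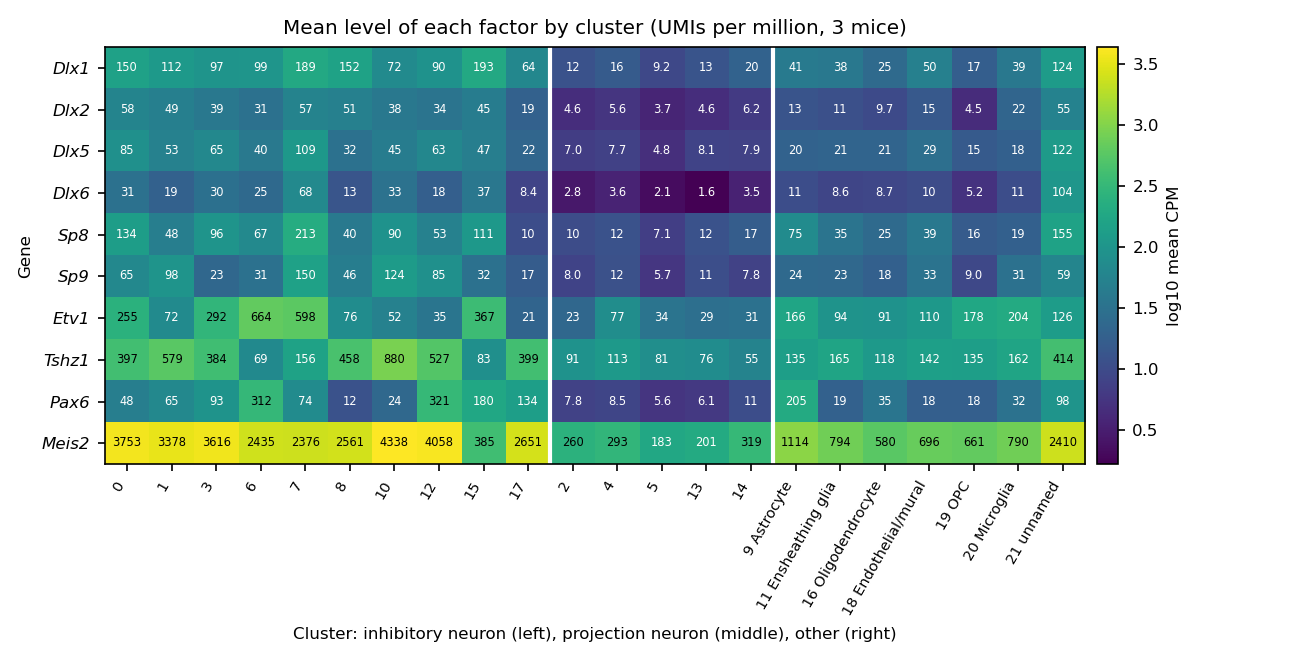
Mean CPM over 3 mice of each gene (rows) in each cluster (columns), with inhibitory-neuron-like clusters on the left, projection-neuron-like clusters in the middle and the others on the right. Colour is log10 of the mean CPM and the numbers are CPM. The inhibitory clusters hold more of most genes than the projection neuron clusters do, and Meis2 falls to 385 CPM in inhibitory cluster 15.

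All 10 genes were higher in inhibitory than in projection neurons. Dlx1 stood at 146, 130.3 and 99.0 CPM in the inhibitory nuclei of mice 1, 2 and 3 and at 9.40, 21.9 and 5.17 CPM in their projection neurons, which on the log2 scale is a difference of 3.26 (SE 0.48, edgeR quasi-likelihood adjusted p 8.8e-04). For Meis2 the values were 3333, 3343 and 3304 CPM against 153, 469 and 112 CPM, and the log2 difference was 3.69 (SE 0.53, edgeR adjusted p 7.8e-04). Tshz1 differed least, at 463, 433 and 351 CPM against 84.4, 115 and 72.1 CPM, and the log2 difference was 2.13 (SE 0.19, edgeR adjusted p 7.8e-05). Etv1 came next at 2.60 (SE 0.20), and the other 6 genes lay between 2.92 (Sp9) and 3.47 (Pax6). The groups did not overlap for any of the 3 genes whose values are given, and how often this holds over all genes was not counted. Of all 18205 genes tested, 12.6% were called higher in inhibitory neurons (adjusted p under 0.05 and more than a 2-fold difference) and 14.5% lower, against 10 and 0 of the 10 genes here. The clusters had been formed on the same counts, and the p-values here and below are a description of those clusters over 3 mice. In mouse 2 the projection neurons held the most of both these factors and Gad1. Gad1 itself, a marker used for naming, had a log2 fold change of 3.25 (SE 0.44). Subclusters 2 and 9 held 71.1% of the Meis2 UMIs of the projection neurons. With them left out, a choice made after the data were seen, Meis2 stood at 54.0, 174 and 44.4 CPM in projection neurons and its log2 difference was 5.12, while Dlx1 (5.55, 13.7 and 3.81 CPM, 3.92) and Tshz1 (73.7, 82.5 and 66.0 CPM, 2.42) moved less.

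Among the inhibitory clusters the genes were graded, from small to large differences between clusters. In the 10 clusters, each set against the mean of the other 9, 16 of 100 gene-by-cluster tests were called higher and 17 lower, where 5.76% of all such tests over 14722 genes were higher and 4.58% lower. Dlx1 and Dlx2 had no call, Dlx5 had 2, Dlx6, Sp8 and Meis2 had 3, 3 and 1, and Sp9, Pax6, Tshz1 and Etv1 had 4, 5, 5 and 10. The ratio of the highest to the lowest cluster mean was 3.01 for Dlx2, 3.03 for Dlx1, 4.86 for Dlx5 and 8.05 for Dlx6. It was 9.09 for Sp9, 11.3 for Meis2 and 12.7 for Tshz1, and reached 20.3 for Sp8, 26.9 for Pax6 and 32.3 for Etv1. Of the 100 levels, 83 lay above the mean of the same gene in microglia-like nuclei, which had a median of 3405 UMIs. The same share over all genes was not computed, so this count only describes the 10 genes. Etv1, which stood at 204 CPM in microglia, gave 5 of the levels that were not above.

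Dlx1 reached 250.6, 173 and 155 CPM in cluster 15 and 206, 189.7 and 172 CPM in cluster 7, which overlapped. It was lowest in cluster 17, at 60.4, 77.9 and 53.0 CPM. Between neighbours in the order of the 10 cluster means, the ranges of the mice overlapped in 9 of 9 cases for Dlx1, Dlx2 and Dlx5. Dlx2 lay between 58.0 ± 10.1 CPM in cluster 0 and 19.3 ± 6.55 in cluster 17 (SD, n = 3), the latter below its 21.8 ± 15.3 in microglia.

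Among the inhibitory clusters Dlx5 and Dlx6, the other pair, were both highest in cluster 7, whose leading genes are Pde5a, Kcnmb2 and Nppa and which holds the most Calb2, the calretinin gene (2446 CPM). Dlx6 stood there at 76.1, 60.5 and 66.5 CPM, above every value of the next cluster, 15, at 36.5, 32.1 and 42.1 CPM. Its log2 fold change in cluster 7 was 1.49 (SE 0.16, adjusted p 5.4e-09, edgeR), and that of Dlx5 1.05 (SE 0.20, adjusted p 1.4e-04). Both were called lower in cluster 17, which is led by Npsr1 and Sorcs1, Dlx6 by a log2 fold change of -1.39 (SE 0.28) and Dlx5 by -1.12 (SE 0.30), and Dlx6 also in cluster 8 (-1.01, SE 0.19). Without mouse 3 the calls of Dlx5 in cluster 7 (0.94) and of Dlx6 in cluster 8 (-0.71) fell under the 2-fold threshold, the latter also without TMM factors (-0.93), with the mouse as a replicate block (-0.98) and without the 5% of nuclei with the most UMIs (-0.95), and without mouse 1 that of Dlx5 in cluster 17 did not pass (adjusted p 0.111). Dlx6os1, which overlaps Dlx6, was at 516 CPM in cluster 7 and had its highest inhibitory mean, 682 CPM, in cluster 12.

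Sp8 and Sp9 shared their highest cluster and differed elsewhere. In cluster 7 Sp8 stood at 212, 182 and 245 CPM and Sp9 at 188, 128 and 135 CPM, with log2 fold changes of 1.69 (SE 0.13, adjusted p 1.3e-11) and 1.47 (SE 0.15, adjusted p 5.7e-09, edgeR). Sp8 was higher in cluster 0 as well (146, 129.8 and 126 CPM, log2 fold change 1.11, SE 0.13). Sp9 was higher in cluster 10 instead (161, 118 and 94.95 CPM, log2 fold change 1.35, SE 0.16). Cluster 3, led by Tpbg and Syt10, kept Sp8 at 96.4 ± 27.3 CPM while Sp9 was lower there, at 17.6, 26.3 and 24.7 CPM (log2 fold change -1.27, SE 0.19). Both were called lower in cluster 17, where Sp8 had 4.77, 17.1 and 9.63 CPM. All 3 of these Sp8 values lie below its mean of 18.7 CPM in microglia.

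**Figure D2:**
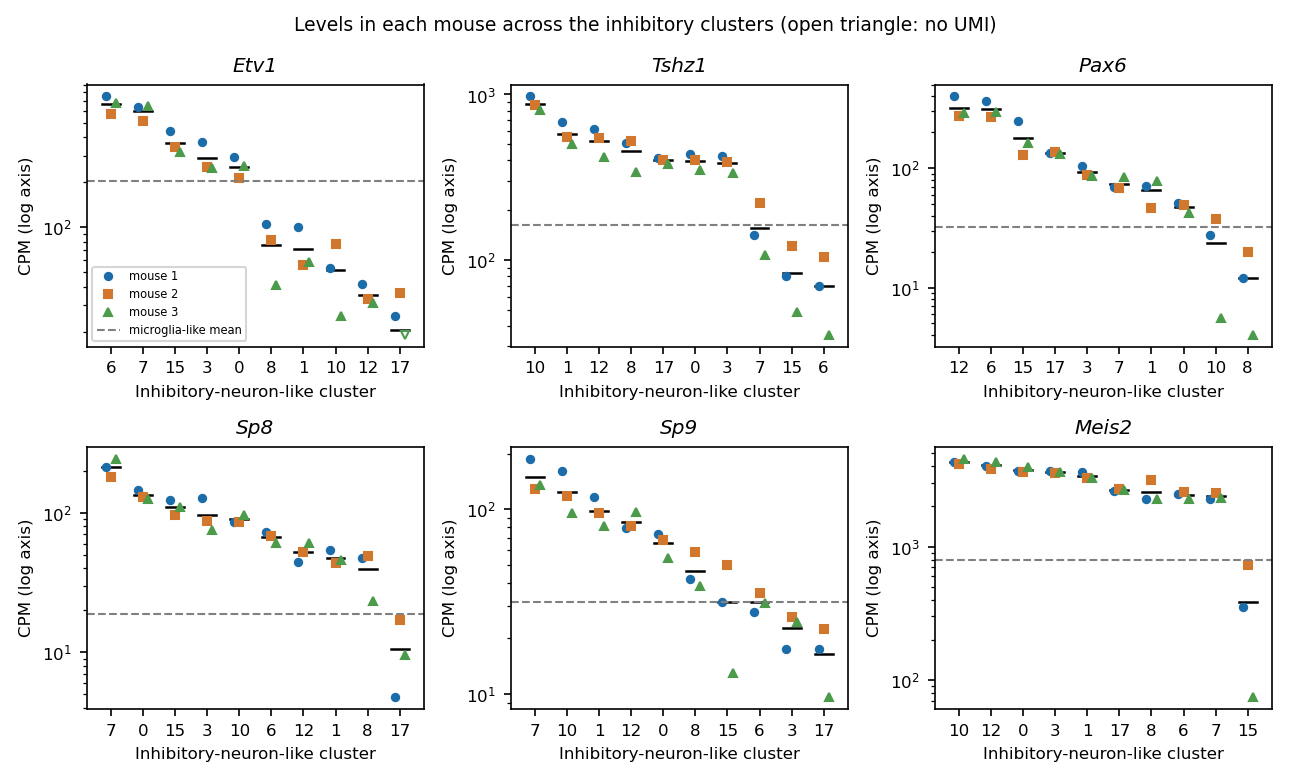
CPM (log axis) of 6 genes in each mouse (points) and their mean (bars) in the 10 inhibitory-neuron-like clusters, ordered by mean, with the mean in microglia-like nuclei as a dashed line and an open triangle at the lower edge for a library without a UMI. Etv1, Pax6 and Tshz1 run from well above to below the dashed line, whereas Meis2 is high in 9 clusters and low in cluster 15.

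Etv1, known as a factor of superficial interneurons, was the most variable of the genes. It reached 750.1, 568 and 673 CPM in cluster 6, which carries all 5 markers of dopaminergic periglomerular cells, and 637, 511 and 644 CPM in cluster 7. These clusters overlapped, with log2 fold changes of 2.46 (SE 0.18, adjusted p 2.6e-12) and 2.21 (SE 0.19, adjusted p 7.9e-11, edgeR). Clusters 15, 3 and 0 followed at 367 ± 64.5, 292 ± 71.0 and 255 ± 40.3 CPM. In clusters 8, 1, 10, 12 and 17 it stood at 76.4 CPM or less, below the 204 ± 6.97 CPM of microglia, and all of these were called lower. Cluster 17 had 25.4 and 36.2 CPM in mice 1 and 2 and no UMI in mouse 3, where 3 UMIs would be 7.23 CPM. After thinning every nucleus to 2000 UMIs, 65.9% ± 4.26 of nuclei in cluster 6 had an Etv1 UMI (92.3% before thinning), against 3.17% ± 1.59 in cluster 12 (9.69% before) and 18.9% ± 3.09 in microglia (32.4% before). The median depths of these clusters were 9566, 6871 and 3405 UMIs. Thinning left out 28 of 21236 inhibitory and 7 of 146 microglia nuclei. The calls in clusters 0 and 8 were lost without mouse 3 (0.84 and -0.88) and that in cluster 1 without mouse 2 (adjusted p 0.0797). Those in clusters 0 and 8 were also lost without TMM factors (0.95 and -0.99), and that in cluster 1 without the filter on low counts (-0.98) or without the 5% of nuclei with the most UMIs (-0.85). With clusters 10 and 12 left out of the comparison, clusters 0 (0.57) and 3 (0.85) were no longer called.

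Tshz1, at chr18:84011627-84087706 on the minus strand, was high in clusters where Etv1 was low. It was highest in cluster 10, led by Klhl1, at 973, 859.7 and 806 CPM, above every value of cluster 1, which followed at 679.8, 553 and 504 CPM. Their log2 fold changes were 1.72 (SE 0.16, adjusted p 8.1e-10) and 1.07 (SE 0.17, adjusted p 1.2e-05, edgeR). Clusters 12, 8, 17, 0 and 3 held between 527 and 384 CPM. It was lowest in the dopaminergic-like cluster 6, at 69.4, 103 and 35.2 CPM (log2 fold change -2.38, SE 0.23, adjusted p 1.5e-09), and low in clusters 15 (-2.03, SE 0.25) and 7 (-1.18, SE 0.21). The means of these 3 clusters lie below the 162 ± 100.1 CPM of microglia. Without mouse 1 the calls in clusters 1 (0.97) and 7 (adjusted p 0.0503) were lost, and without clusters 10 and 12 that in cluster 7 (-0.85). Across the 10 clusters, log2 levels of Etv1 and Tshz1 had a Pearson's r of -0.77, and between -0.78 and -0.70 in single mice, while over all 22 clusters r was -0.09. This r describes clusters of the same 3 libraries that also differ in depth.

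Pax6 differed between some clusters that were alike in another gene, as did other genes of the set. It was high in cluster 12, led by Kcnt2 and Bmp3, at 401, 272 and 291 CPM, and in cluster 6, at 368, 271 and 296 CPM, with log2 fold changes of 2.12 (SE 0.19, adjusted p 2.8e-10) and 2.08 (SE 0.18, adjusted p 5.0e-11, edgeR). Clusters 6 and 12 thus overlapped in Pax6 and were apart in Etv1, at 664 and 35.1 CPM. Clusters 10 and 12 had the highest Meis2 means, and Pax6 separated them, standing at 27.5, 37.5 and 5.52 CPM in cluster 10 (log2 fold change -1.78, SE 0.27). Sp9 (log2 fold changes 1.35 and 0.66) and Tshz1 (1.72 and 0.84) were also called higher in cluster 10 and not in cluster 12. Pax6 was lowest in cluster 8, at 11.9, 19.9 and 4.00 CPM (-3.09, SE 0.29, adjusted p 5.7e-10), the cluster with the most Calb1 (97.6 CPM). The means of clusters 8 and 10 lie below the 32.1 CPM of microglia, although mouse 2 lies above it in cluster 10. Cluster 8 and cluster 17 both held much Foxp2, a forkhead gene (1637 and 1276 CPM), but Pax6 was at 133, 137 and 132 CPM in cluster 17. The call in cluster 15 (1.10, SE 0.22) did not pass without mouse 1 (adjusted p 0.115).

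Meis2 was found in nearly every inhibitory nucleus except those of cluster 15. In 9 clusters it stood between 2376 ± 134 CPM (cluster 7) and 4338 ± 196 CPM (cluster 10), and from 92.2% to 99.7% of their nuclei had a UMI at 2000 UMIs per nucleus. Cluster 15, led by the peptide genes Vip, Pnoc and Sst, had 355, 727 and 74.5 CPM (log2 fold change -3.04, SE 0.30, adjusted p 1.9e-09, edgeR). All of its values lie below every value of the other 9 clusters, and below the 789.9 CPM mean of microglia. At the thinned depth 26.1% ± 19.0 of its nuclei had a Meis2 UMI (47.9% before thinning), against 37.5% ± 25.8 in microglia (47.3% before), with median depths of 8471 and 3405 UMIs. In the same cluster Dlx1 (193 ± 50.7 CPM) and Sp8 (111 ± 13.6 CPM) were present. Of 301 nuclei in cluster 15, 67, 201 and 33 came from mice 1, 2 and 3. Meis1 and Pbx3, a paralog and a known partner of Meis2, were called lower there too, as was Tshz3, among 13 paralogs and cofactors tested, while Etv4 and Etv5 were higher.

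Read by cluster, the dopaminergic-like cluster 6 combined high Etv1 and Pax6 with low Tshz1, as did cluster 15 together with low Meis2, and cluster 7 combined high Etv1, Sp8, Sp9, Dlx5 and Dlx6 with low Tshz1. Cluster 7 also carried 6 markers of immature neurons, the most of the inhibitory clusters. Cluster 10 had high Tshz1 and Sp9 with low Etv1 and Pax6, and cluster 12 high Pax6 with low Etv1. In cluster 17, 5 genes (Dlx5, Dlx6, Sp8, Sp9 and Etv1) were lower, and Meis2, Tshz1 and Pax6 stood at 2651 ± 49.2, 399 ± 16.8 and 134 ± 2.37 CPM. That cluster has 190 nuclei, 20 of them from mouse 3, with a median of 16912.5 UMIs. In the unnamed cluster 21 Dlx5 stood at 143, 91.5 and 131 CPM and Dlx6 at 238, 37.3 and 37.5 CPM. Its high Dlx6 mean thus rests on mouse 1, which has 9 nuclei there.

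Within a cluster, the number of nuclei that held both genes of a pair was set beside the number that their own frequencies give. After thinning to 2000 UMIs, 183 gene pairs in single clusters had an expected count of at least 5 joint nuclei in each mouse, of which 67 include Meis2. Because nearly every nucleus holds Meis2, the ratio of observed to expected is held near 1 in these. Over the other 116 the median ratio was 1.04, and it exceeded 1 in all mice for 35 and was below 1 in all mice for 17. The largest was that of Etv1 and Pax6 in cluster 1, with a mean of 1.77 ± 0.23 (79 joint nuclei, SD, n = 3). Dlx1 and Etv1 in the same cluster had 1.67, 1.44 and 1.63. In that cluster Etv1 was called lower (edgeR log2 fold change -1.04) and its mean lay below that of microglia. What gave rise to these ratios was not tested. Dlx1 and Dlx2 had ratios of 1.38, 1.35 and 1.31 in cluster 8, and Sp8 and Sp9 of 1.33, 1.22 and 1.17 in cluster 7. The lowest was that of Sp8 and Tshz1 in cluster 8, at 0.84, 0.90 and 0.40. These ratios were ranked on the values they describe and carry no test.

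To compare the genes outside inhibitory neurons, each level was written as a percentage of the inhibitory level of the same mouse and set beside that of Gad1. This measure was chosen after the data had been seen. In astrocyte-like nuclei Gad1 had 26.0%, 48.1% and 18.5% of its inhibitory level in mice 1, 2 and 3, and Meis2, Tshz1, Sp9 and the Dlx genes had between 25.4% (Dlx2) and 39.1% (Dlx6) on average, with Dlx6 above Gad1 in each mouse (1.45, 1.04 and 1.60 times). Pax6 instead had 217%, 208% and 257%, Sp8 78.8%, 79.3% and 83.1%, and Etv1 62.9%, 78.8% and 69.1%. Divided by the percentage of Gad1, Pax6 was at 8.34, 4.32 and 13.9, Sp8 at 3.03, 1.65 and 4.49, and Etv1 at 2.42, 1.64 and 3.74. Etv1 also exceeded Gad1 in precursors of oligodendrocytes (2.87, 2.82 and 8.52) and in microglia (5.07, 1.94 and 2.63). In oligodendrocytes, olfactory ensheathing glia, and endothelial and mural cells its mean ratios were lower (1.76, 1.33 and 1.43), and an excess in all mice was not particular to it. Dlx5 had higher mean ratios than Etv1 in oligodendrocytes (1.25, 1.02 and 4.08, mean 2.12) and in endothelial and mural cells (1.21, 1.18 and 2.62, mean 1.67). Sp9 had mean ratios of 1.21 and 1.60 in these clusters, Tshz1 1.37 in ensheathing glia, and Sp8 and Gad2 1.28 and 1.27 in endothelial and mural cells. In cluster 2 of the projection neurons Etv1 had 22.9 CPM, at 1.19, 0.84 and 1.08 times the percentage of Gad1. The lowest inhibitory mean of Etv1, in cluster 17, was 20.5 CPM.

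**Figure D3:**
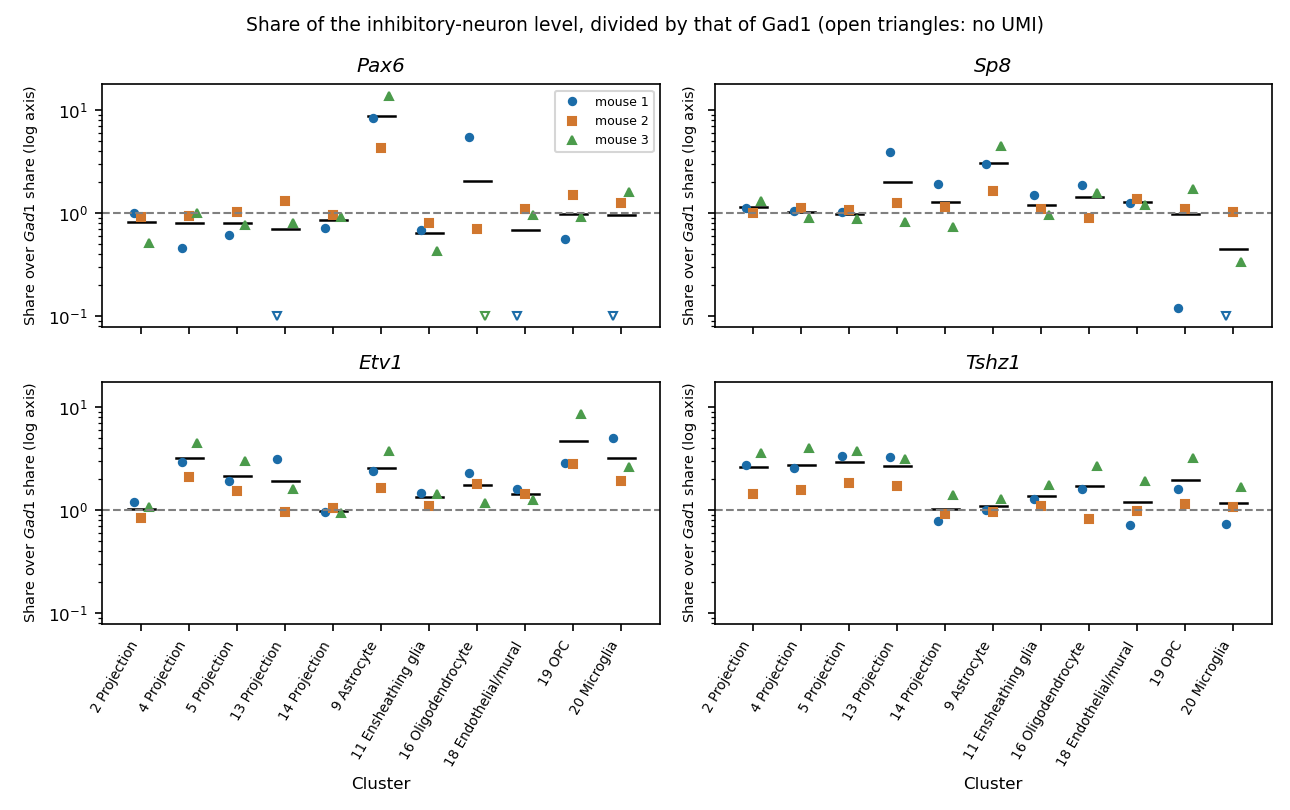
The level of 4 genes outside the inhibitory clusters as a share of their inhibitory level, divided by the same share for Gad1 (log axis), for each mouse (points) and on average (bars). The dashed line at 1 is the share of Gad1, and open triangles mark libraries without a UMI. Pax6 and Sp8 lie above the line in astrocyte-like nuclei in all 3 mice, and Tshz1 does so in 4 of the 5 projection neuron clusters.

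In the test of astrocytes against inhibitory neurons, Pax6, which is also known from glia that give rise to neurons, was higher in astrocytes. It stood at 239, 167 and 208 CPM in astrocytes and 109.9, 80.2 and 81.2 CPM in inhibitory neurons, without overlap (log2 fold change 1.05, SE 0.18, adjusted p 8.1e-04, edgeR). Of the 10 genes 1 was thus called higher and 7 lower, where 14.9% of 16757 genes were higher and 10.4% lower. Sp8 (81.0, 70.9 and 71.8 CPM, log2 fold change -0.44, SE 0.14) and Etv1 (184, 158 and 158 CPM, -0.65, SE 0.17) were below the 2-fold threshold. The 7 lower genes had log2 fold changes between -1.34 (Dlx6) and -1.79 (Dlx2). Without mouse 3 the fold change of Pax6 was 0.98 and no longer called. Without mouse 1 Dlx1 (adjusted p 0.0503) and Dlx2 (0.0880) did not pass. Pax6os1, which overlaps the start of Pax6, was among the 3 genes whose pattern over clusters was most like that of Pax6 (r = 0.81).

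In projection neurons Tshz1, Etv1, Sp9, Dlx2 and Dlx6 each stood above the percentage of Gad1 in all 3 mice in some of the clusters. Tshz1 had 22.0% of its inhibitory level in cluster 2, against 10.3% for Gad1, a ratio of 2.75, 1.44 and 3.61 in mice 1, 2 and 3, and clusters 4, 5 and 13 gave mean ratios of 2.73, 2.96 and 2.70. Cluster 14 gave 1.04. Etv1 was above it in cluster 4 (2.94, 2.12 and 4.51) and cluster 5 (1.90, 1.53 and 3.03), and Sp9 in cluster 2 (1.34, 1.03 and 1.23) and cluster 4 (1.91, 1.27 and 1.28). Dlx6 was slightly above it in cluster 4 (1.08, 1.08 and 1.22). In cluster 13 Sp9 (5.47, 1.29 and 1.09) and Dlx2 (1.83, 1.02 and 1.204) were above it, by most in mouse 1. The Dlx genes, Sp8, Sp9 and Pax6 had mean ratios between 0.72 and 1.48 in clusters 2, 4, 5 and 14, except Sp9 in cluster 14 at 0.69, and Meis2 between 0.63 and 0.73. In cluster 13, with 23 nuclei in mouse 1, their mean ratios spread from 0.65 to 2.62. Gad2, the other gene for the GABA-synthesising enzyme, had ratios of 2.27, 1.42 and 2.25 in cluster 4, so that an excess over Gad1 was not particular to these genes there, and between 1.07 and 1.34 on average in the other 4 clusters.

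The projection neurons had been divided into 10 subclusters, of which 7 carry the markers of a type of mitral (M), tufted (T) or external tufted (ET) cell. Etv1 was higher in the ET4-like subcluster, at 100.5, 117 and 96.4 CPM (log2 fold change 1.85, SE 0.18, adjusted p 1.1e-09, edgeR), and in the unnamed subcluster 8, at 44.1, 120.04 and 124 CPM (1.91, SE 0.21, adjusted p 1.7e-07). It was lowest in T1-like nuclei, at 7.36, 7.96 and 6.06 CPM (-2.37, SE 0.23, adjusted p 3.8e-09), below every value of the other subclusters. In subclusters 2 and 9, which carry inhibitory markers and were not tested, Etv1 stood at 85.0 ± 21.4 and 203 ± 83.3 CPM. In ET4-like nuclei its percentage of the inhibitory level was 8.84, 5.19 and 9.05 times that of Gad1, and in T1-like nuclei 0.94, 0.54 and 0.93 times. Gad2 (6.69, 2.45 and 6.12 times) and Tshz1 (5.404, 1.98 and 6.18 times) exceeded Gad1 in ET4-like nuclei as well. Gad2 was itself called higher there, and Tshz1 had a mean ratio of 4.95 in T1-like nuclei too. The remaining genes of the set had lower mean ratios in ET4-like nuclei, from 0.30 (Meis2) to 1.59 (Sp9). Tshz1 had no call, and in the subclusters tested its means ran from 51.9 ± 25.3 CPM in ET2-like to 114 ± 38.6 CPM in M3-like nuclei. In ET2-like nuclei its log2 fold change was -0.65 (SE 0.18, edgeR adjusted p 0.0071), under the 2-fold threshold. In T1-like nuclei Tshz1 stood at 71.6, 74.0 and 68.0 CPM, and in the untested subcluster 2 at 191 ± 30.4 CPM.

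Across the 8 subclusters tested, 3 of 80 gene-by-subcluster tests were called higher and 3 lower, against 6.27% and 4.87% of all such tests over 13673 genes. The calls other than those of Etv1 were Meis2 higher in ET2-like nuclei (275, 518.5 and 88.2 CPM, log2 fold change 1.56, SE 0.42) and Pax6 and Sp8 lower in M2-like nuclei. Gad1 reached 13.0% of its inhibitory level in ET2-like and 3.85% in M2-like nuclei, so that it moved with all 3 of these calls, and its part in them was not tested. The Meis2 call was lost without mouse 1 (edgeR adjusted p 0.0958), and that of Sp8 without mouse 1 (0.221) or mouse 2 (0.239). That of Pax6 was lost whichever mouse was left out (0.148, 0.0678 and 0.0687), and without the 5% of nuclei with the most UMIs (0.0595). With DESeq2 the calls of Pax6 (adjusted p 0.0539) and Sp8 (0.164) were lost. The counts became 5 higher and 5 lower with the mouse as a replicate block, and 3 higher and 6 lower without TMM factors. Subclusters 2 and 9, which carry inhibitory markers, were not tested. They held Meis2 at 1158 ± 172 and 863 ± 268 CPM and Gad1 at 36.3% and 27.2% of its inhibitory level. Leaving both out of the projection neurons changed none of the 10 calls against inhibitory neurons.

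**Figure D4:**
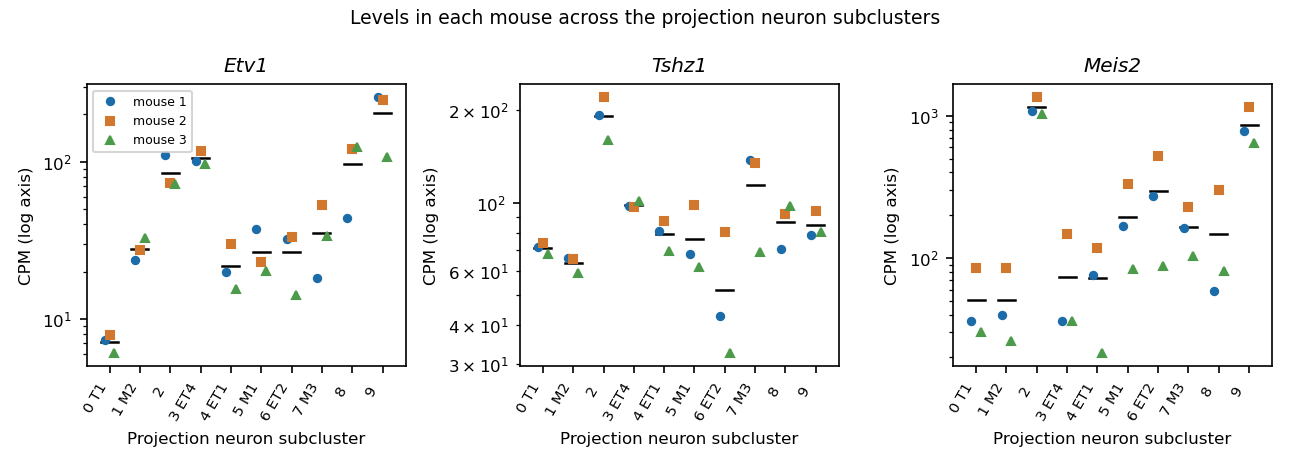
CPM (log axis) of Etv1, Tshz1 and Meis2 in each mouse (points) and their mean (bars) in the 10 projection neuron subclusters, with the type name where markers gave one. Among the subclusters tested Etv1 is lowest in T1 and higher in ET4 and subcluster 8, and its highest mean is in the untested subcluster 9. The means of Tshz1 stay within 51.9 to 114 CPM apart from subcluster 2, and Meis2 is highest in subclusters 2 and 9.

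By their pattern over the 22 clusters, the nearest gene of Dlx1 was Dlx2 and the reverse (Pearson's r = 0.97 of log2 mean CPM plus 5, over 12469 genes of at least 20 CPM in a cluster). Dlx5 and Dlx6 were likewise nearest to each other (r = 0.95). Next to Dlx1 and Dlx2 came Slc32a1, which encodes the vesicular GABA transporter (r = 0.95 for both). Sp8 was nearest to Dlx6 (0.93) and Dlx5 (0.91), and not to Sp9, which was nearest to Atrx (0.89), Slitrk4 (0.87) and Dlx2 (0.87). Tshz1 had Gda (0.95) and Zadh2 (0.95), of which Zadh2 starts 356 bases from Tshz1 on the opposite strand. Etv1 had Fndc3a (0.87), Sall3 (0.84) and Cfap97 (0.84), Pax6 had Adcyap1r1 (0.82) and Cs (0.81), and Meis2 had Rbfox3 (0.95). Over the inhibitory clusters alone, r was 0.81 for Dlx1 with Dlx2 (from 0.40 to 0.89 in single mice), 0.80 for Dlx5 with Dlx6, 0.96 for Dlx6 with Sp8 and 0.51 for Sp8 with Sp9. These values describe 22 or 10 clusters of the same libraries.

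Other genes of the same pathways were counted from lists. Of 19 paralogs and cofactors 13 could be tested between inhibitory and projection neurons, and 3 were higher and 2 lower (12.6% and 14.5% of all genes), with a median log2 fold change of 0.43 against -0.01 over all genes. Meis1 (3.498, SE 0.49) and Pbx3 (3.13, SE 0.39) were among the higher, as Meis2 was. Tshz2 (-5.11, SE 0.25) and Tshz3 (-1.86, SE 0.37) were lower, the direction opposite to their paralog Tshz1. Dlx1as was higher by 3.01 (SE 0.26) on the log2 scale, and Dlx6os1, which served to name the inhibitory clusters, by 3.82 (SE 0.47). Of 31 other factors of the interneuron lineage 25 were tested, 15 were higher and 4 lower, with a median of 1.77. Zic1 (3.02), Zic2 (2.79), Zic4 (2.85) and Zic5 (2.29), zinc finger factors of the lineage, and Sall3 (3.53) were among the higher. All 10 projection neuron factors were lower, with a median of -4.88, and 7 of 9 GABA and dopamine genes were higher. Both of these lists hold markers by which the clusters were named, so that their counts are a description. Of 14 genes used as labels of bulb interneuron subtypes 11 were higher and 1, Reln, was lower.

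Between the inhibitory clusters, 42 of 230 tests of the lineage factors were higher and 43 lower, 18.3% and 18.7%, beside 16 and 17 of 100 for the genes described here. For paralogs and cofactors these were 11 and 9 of 130, or 8.46% and 6.92%, beside 5.76% and 4.58% of all tests. Cluster 7, with high Sp8, Sp9 and Etv1, had 9 of 23 lineage factors higher, among them Sox4, Insm1, Zic1 and Zic2, and 1 lower, where 5.90% of all genes were higher and 4.12% lower. Cluster 17 had 5 higher, among them Foxp2 and Bcl11a, and 9 lower, among them Zic1, Zic2 and Sall3, beside 8.76% and 6.91% of all genes. Dlx1as was higher in cluster 10 (213.5 CPM). Dlx1 had no call there, with a log2 fold change of -0.66 (SE 0.20, edgeR adjusted p 0.0207) that was under the 2-fold threshold. Dlx6os1 was lower in cluster 6 (207 CPM).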

How the data were processed

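UMI counts per gene and barcode of 3 libraries were used as the authors deposited them, raw, on mm10, and per the file headers the software was Cell Ranger 3.0.2. The aligner settings for strand and introns are not given in the sources used here. Clusters and subclusters are those of the deposited table of nuclei retained by the authors (31703 of the barcodes, none with fewer than 1001 genes), who merged the mice and clustered in Seurat. No doublet caller was run, and nuclei with the most UMIs were left out in an alternative.

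Counts were summed per mouse and cluster. CPM are UMIs per 1000000 of a sum. Sums were tested with edgeR 4.0.16 in R 4.3.3 (filterByExpr, TMM, quasi-likelihood, no covariate, Benjamini-Hochberg over all genes tested) and a call required a more than 2-fold difference at an adjusted p below 0.05. The study tested single nuclei with another package. The SE is the log2 fold change over the square root of F. Sums of fewer than 10 nuclei were not tested. The tests were also tried on simulated data, but the outcome is not reported here and nothing is drawn from it. A marker was carried at 25% of its highest cluster (50% for subclusters), and a name needed 3. Genes named are the 10 chosen genes, leading genes of clusters, the 3 most alike genes and members of the lists. These genes and lists were chosen with earlier results of these data known. Some members of the lists are not reported here by name.

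The sums of a comparison come from the same animals. Deviations from the group means correlated with a mean r of 0.30 between inhibitory and projection sums of a mouse (3 pairs, lowest 0.24) and -0.15 between mice, and with 0.12 against -0.06 between inhibitory clusters (135 pairs). A fit with the mouse as block was tried as well.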

Additional observations from a re-analysis of the deposited data

How the results depend on the processing

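The 10 calls of higher level in inhibitory than in projection neurons held in every alternative run (library size without TMM factors, no filter, DESeq2 1.42.0, the mouse as a replicate block, at least 1500 genes per nucleus, without the 5% of nuclei with the most UMIs, each mouse left out, and, added after the data were seen, without clusters 10 and 12 or subclusters 2 and 9). Between inhibitory clusters 23 of the 33 calls held in all alternatives, and without each mouse in turn the counts ranged from 14 to 18 higher and from 16 to 20 lower. Between projection neuron subclusters 3 of 6 calls held in all. There the counts were 5 higher and 5 lower without a filter and again with the replicate block, 6 lower without TMM factors, 1 lower with DESeq2, and from 2 to 4 higher and 1 to 4 lower with a mouse left out. In astrocytes Pax6 was the single gene called higher, and 0 were called without the filter (log2 fold change 0.97) or without mouse 3, so that the range was 0 to 1, and 5 to 7 genes were lower with a mouse left out. With the replicate block no call changed apart from those of Etv1 in cluster 0 (1.00, just under the threshold) and Dlx6 in cluster 8 (-0.98), and the added calls between subclusters. No named fold change reversed. Of the recomputed cluster levels 4 moved by more than 1 SD and 596 did not, while shares of nuclei thinned to 4000 rather than 2000 UMIs moved in 91 of 100, since a share depends on depth. The number of the 100 inhibitory levels above microglia was 83 and ranged from 81 to 87. Dlx2 and Dlx6, with at most 58.0 and 67.7 CPM in the named inhibitory clusters, and all levels in microglia and other small clusters rest on few UMIs, which limits what can be read from them.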
